A study of Homo sapiens with 2 samples.

Results

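The peaks described here are the H3K27ac peaks of LOUCY in a proximal and a distal part of the long arm of chromosome 5 (5q), 747 of the 52203 peaks in the authors' list. Of these, 400 started between positions 98107018 and 134685365 (the proximal part, 5q15 to 5q31.1) and 347 at or after position 153411161 (the distal part, 5q33.2 to the end of 5q), all on hg19. The limits were themselves selected on measured values of the same list: within them, the fold over input and the p of each peak together implied a low local level of input DNA. Input level, fold and p are therefore given as descriptions with no test, as are density, width and domains, which come from the same calls. The comparison part was chromosome 5 before position 96520247, with 1273 peaks, and the inner segment of 370 peaks between the proximal and the distal part is given where it borders them.

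LOUCY is an established line of human T-ALL (acute lymphoblastic leukaemia of T cells) and a common model of the early T-cell precursor form. The series held 1 H3K27ac ChIP library and 1 input DNA library of this line, with no drug or genetic change named in the labels, so there are no replicates and every value describes this library pair. The caller kept 54357332 ChIP tags and 71932640 input tags. Of 9 marker genes of T cells and other blood lineages, 1 (S100A9, a myeloid calcium-binding protein) had a position in the hg19 gene sets at hand, and no peak lay at its promoter. The cell type label was otherwise not checked here.

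Acetylation of histone H3 at lysine 27 is placed by the acetyltransferases p300 and CBP and marks active promoters and enhancers. Sharp peaks are typical of promoters, and long runs of closely spaced peaks, often called super-enhancers or large domains, are typical of genes that define a cell's identity. The proximal part spans APC and CAMK4 in 5q22 and, in 5q31.1, the cytokine genes IL3, CSF2, IL4, IL5 and IL13 with the T-cell factor gene TCF7 and the interferon response gene IRF1. The distal part spans EBF1 in 5q33.3, the lymphocyte signalling genes LCP2, DOCK2 and STK10 in 5q35.1 and NSD1 and SQSTM1 in 5q35.3. These band memberships are textbook background: no full hg19 annotation was used here, so peaks are given by position and a gene is named at a peak only where a small hg19 gene set holds it.

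Promoters with known hg19 positions show the mark at single genes of these parts. The gene sets held 6 protein-coding genes that start in the proximal or distal part. All 6 had a peak within 1 kb of the start site, with folds over input from 5.22 to 20.3. In the pyranges gene set, 54.8% of 354 gene starts lay within 1 kb of a peak. The bases before the RefSeq start of 4 of them are printed because they span the range of the folds and of the GC box counts: PITX1 has the highest fold, MAPK9 the lowest, ZNF346 the highest in the distal part, and CCDC112 the most GC boxes. Each run is the 250 bases before the RefSeq start on GRCh38.p14, 5′ to 3′ on the gene's strand, and capitals mark a GC box, GGGCGG on either strand. The RefSeq start of APC is another start than that under its hg19 promoter peak, so its window was left out and 5 windows remained. No coordinate was converted between builds.

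PITX1 (GRCh38.p14 chr5:135034229-135034478, minus strand): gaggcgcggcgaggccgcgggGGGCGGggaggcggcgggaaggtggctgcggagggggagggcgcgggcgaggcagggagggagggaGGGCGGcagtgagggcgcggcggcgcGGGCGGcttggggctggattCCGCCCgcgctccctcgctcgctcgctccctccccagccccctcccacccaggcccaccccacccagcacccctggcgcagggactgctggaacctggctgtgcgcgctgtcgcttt
CCDC112 (GRCh38.p14 chr5:115296655-115296904, minus strand): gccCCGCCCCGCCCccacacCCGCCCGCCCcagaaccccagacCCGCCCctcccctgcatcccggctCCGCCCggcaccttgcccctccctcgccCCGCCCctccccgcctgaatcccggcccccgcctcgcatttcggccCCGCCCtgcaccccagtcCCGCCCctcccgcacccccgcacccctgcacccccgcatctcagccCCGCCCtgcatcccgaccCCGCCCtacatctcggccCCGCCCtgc
ZNF346 (GRCh38.p14 chr5:177022446-177022695, plus strand): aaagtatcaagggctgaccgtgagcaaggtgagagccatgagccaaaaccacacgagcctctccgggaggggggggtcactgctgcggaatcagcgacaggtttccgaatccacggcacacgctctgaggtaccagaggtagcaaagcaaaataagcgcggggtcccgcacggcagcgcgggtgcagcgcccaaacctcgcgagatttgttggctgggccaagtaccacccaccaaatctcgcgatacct
MAPK9 (GRCh38.p14 chr5:180292084-180292333, minus strand): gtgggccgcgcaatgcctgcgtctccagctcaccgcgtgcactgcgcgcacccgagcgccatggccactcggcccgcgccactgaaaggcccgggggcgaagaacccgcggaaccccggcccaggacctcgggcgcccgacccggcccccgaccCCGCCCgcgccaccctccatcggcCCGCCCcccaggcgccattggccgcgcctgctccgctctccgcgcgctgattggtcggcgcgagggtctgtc

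The 5 windows differed widely in base content. PITX1 had 29 CpG dinucleotides and 4 GC boxes, CCDC112 had 25 CpG and 12 GC boxes, MAPK9 had 37 CpG and 2 GC boxes, and ZNF346 had 19 CpG and no GC box. ZCCHC10 had 17 CpG and 1 GC box. The median over all 35116 RefSeq promoters of this length was 11 CpG. A GC box was found in 4 of 5 windows and in 42.6% of all promoters. CCAAT, searched on both strands like the other motifs, was found in 1 of 5 (MAPK9) and in 32.0% of all promoters. TATAAA was in none of the 5 and in 10.7% of all promoters, and TGACGTCA in none of the 5 and in 1.65%. GC boxes overlap each other in CCDC112, and each match was counted.

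PITX1, a paired-type homeobox transcription factor known for its role in the hindlimb and pituitary, lay under the highest peak of the proximal part. Its 6541 bp span, 134363424 to 134369964 on the minus strand, was inside 1 peak of 12354 bp at chr5:134360449-134372802 in 5q31.1. The peak's fold of 20.3 ranked 10 among all 52203 peaks, while its implied ChIP pileup ranked 225 and its width 1474. The implied ChIP pileup, in tags, is the height that the fold and the implied input level give together, here 133 over an input level of 5.602. In GRCh38 order the coding neighbours of PITX1 are CATSPER3 and MACROH2A1.

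The other 5 promoters were narrower and lower. The peak at ZNF346, a zinc finger protein that binds double-stranded RNA, was 1779 bp wide with a fold of 8.25 (5q35.2). CCDC112, a coiled-coil protein gene, had a peak of 970 bp and fold 7.66 at its minus-strand start (5q22.3). APC, the tumour suppressor that holds beta-catenin in check, had a start peak of 1967 bp and fold 7.49, and a further peak inside the gene at chr5:112130141-112133556, 56.6 kb from the start, with a fold of 5.25. ZCCHC10, a CCHC zinc finger gene, had a peak of 1428 bp and fold 7.41 (5q31.1). MAPK9, which encodes the stress kinase JNK2, had a peak of 2516 bp and fold 5.22 (5q35.3).

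In the comparison part promoter peaks lay at SETD9 with a fold of 10.4, IL6ST with 7.30, PDE4D with 4.88 and CDC20B with 2.78. GPX8, POU5F2 and RAB3C had none. These are genes of small example sets, so the count of 6 of 6 describes these genes only. Of 65 genes of these parts listed for their roles in lymphoid cells or as neighbours, 3 had a position in the sets: PITX1, APC and MAPK9. An unnamed transcript at 170732985 to 170735759 in 5q35.1 held a peak of 1230 bp with a fold of 3.996.

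The input level set both parts apart from the rest of chromosome 5, as the rule required. The level is the input signal per fragment window, on the same scale as the ChIP pileup, at which the fold of a peak would have its Poisson p. It is not a raw count of input tags. Its median was 4.74 in the proximal part (quartiles 4.33 and 5.19), 4.69 in the distal part (4.29 and 5.09), 6.46 in the inner segment and 6.88 in the comparison part (5.70 and 8.48). On the log2 scale the medians differed from that of the comparison part by -0.54 (proximal) and -0.55 (distal). In windows of 5 Mb the median ranged from 4.49 to 4.90 over 7 proximal windows and from 4.50 to 4.804 over 5 distal windows. Over 16 comparison windows it ranged from 5.11 to 8.48. The rule required low levels in both parts, so nothing is read from their narrow range. The caller does not let the level fall under a genome background of 4.11 tags. Within 1% of that floor lay 21 proximal peaks (5.25%), 25 distal peaks (7.20%) and 14 comparison peaks (1.10%), and for those the true local level may be lower than implied.

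**Figure D1:**
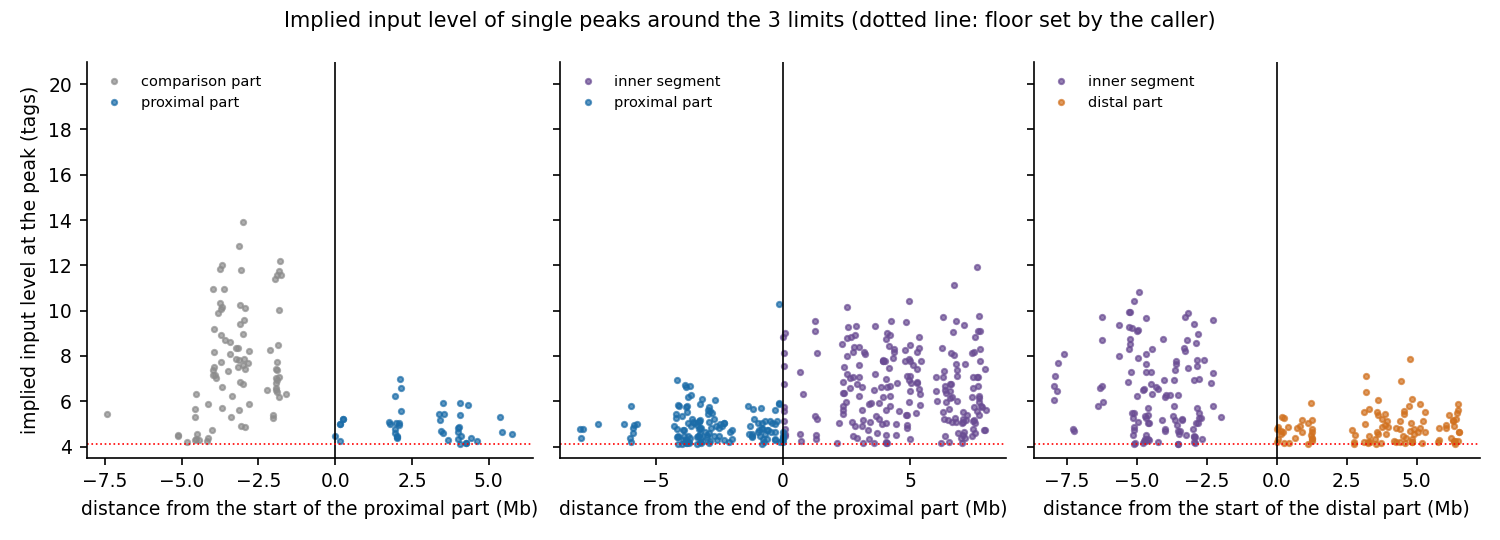
Implied input level in tags of single peaks (points) against distance in Mb from the start of the proximal part, its end, and the start of the distal part (vertical lines); the dotted line is the caller's floor of 4.11. Low values fill the proximal and distal sides, while the comparison part and the inner segment spread upwards, and many peaks on either side overlap in level.

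The peaks next to each limit gave these values. Before the proximal part the last comparison peaks had levels of 11.6 and 6.31 and folds of 4.42 and 7.97, and the first proximal peaks had levels of 4.47 and 4.23 and folds of 2.57 and 2.54. At its end the last proximal peaks had levels of 4.401 and 4.464 and the next peaks 8.84 and 5.11. Before the distal part the levels were 9.59 and 5.30, and the first distal peaks had 4.18 and 4.78. Over 20 peaks on either side the medians went from 7.22 to 4.99 at the proximal start, from 4.64 to 5.65 at the proximal end and from 5.74 to 4.67 at the distal start. The proximal start and the distal start lie in stretches without any peak, of 1.59 Mb (96520248 to 98107017) and 2.004 Mb (151406772 to 153411160), so the list places those limits no closer than that.

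Against the whole comparison part, peaks were sparser in the proximal part and about as dense in the distal part. The proximal part held 10.9 peaks per Mb over 36.6 Mb, the distal part 12.6 over 27.5 Mb, the comparison part 13.2 over 96.5 Mb and the inner segment 19.8 over 18.7 Mb. The density ratio to the comparison part was 0.829 for the proximal part (95% Wilson interval 0.741 to 0.928) and 0.957 for the distal part (0.850 to 1.08), and these intervals cover counting error only. Peaks covered 3.07% of the proximal part, 3.66% of the distal part and 3.71% of the comparison part. The median gap between neighbouring peaks was 24.13 kb, 19.02 kb and 14.75 kb in the same order.

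Both density ratios depended on which peaks and which bases were counted. With a fold of at least 4 in every part, the proximal ratio was 1.01 and the distal ratio 1.498. With the same minimum implied pileup in every part, they were 0.645 and 0.854. Both thresholds use values that chose the parts, and a low input level raises the fold at a given pileup. Nothing is therefore read from the order of the parts under them. The darkest Giemsa bands, which are gene-poor, made up 52.5% of the proximal part, 31.3% of the distal part and 19.4% of the comparison part, and held 7.76, 7.21 and 8.40 peaks per Mb. Weighted to the same mix of Giemsa classes, the proximal ratio was 0.939 and the distal ratio 0.965. The 5q stretch of the comparison part held 17.6 peaks per Mb and the other autosomes 17.9. Against these the proximal ratio was 0.622 and 0.611, and the distal ratio 0.718 and 0.705, so both parts were then sparser.

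The proximal peaks were concentrated in 5q31.1, the band of the cytokine genes. Its 4.09 Mb before the limit held 118 of the 400 peaks in 11.2% of the length, 28.9 per Mb, and peaks covered 9.02% of it. From 5q15 to 5q23.3 the density was 8.68 per Mb and the coverage 2.33%. Bands as dense as 5q31.1 were also found in the comparison part: 5q13.3 had 29.4 peaks per Mb, 5q13.1 28.2 and 5q14.1 27.6. Peaks covered 8.75% of 5q14.1. The sparsest proximal band was 5q21.2, with 3 peaks or 1.76 per Mb, while 5q22.1 had 17.9 and 5q22.2, the band of APC, 15 (34 and 24 peaks). The median input level, which the rule holds low throughout, was 4.74 in both stretches.

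The densest distal band was 5q35.3, with 86 peaks or 19.9 per Mb. Next were 5q33.3, the band of EBF1, with 77 or 18.3, and 5q35.1 with 60 or 13.95. The sparsest was 5q34, a darkly stained band that holds a cluster of GABA receptor genes, with 62 peaks or 7.21 per Mb over 8.60 Mb. Coverage was highest in 5q35.1 (5.55%), 5q35.3 (5.402%) and 5q33.3 (5.13%).

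**Figure D2:**
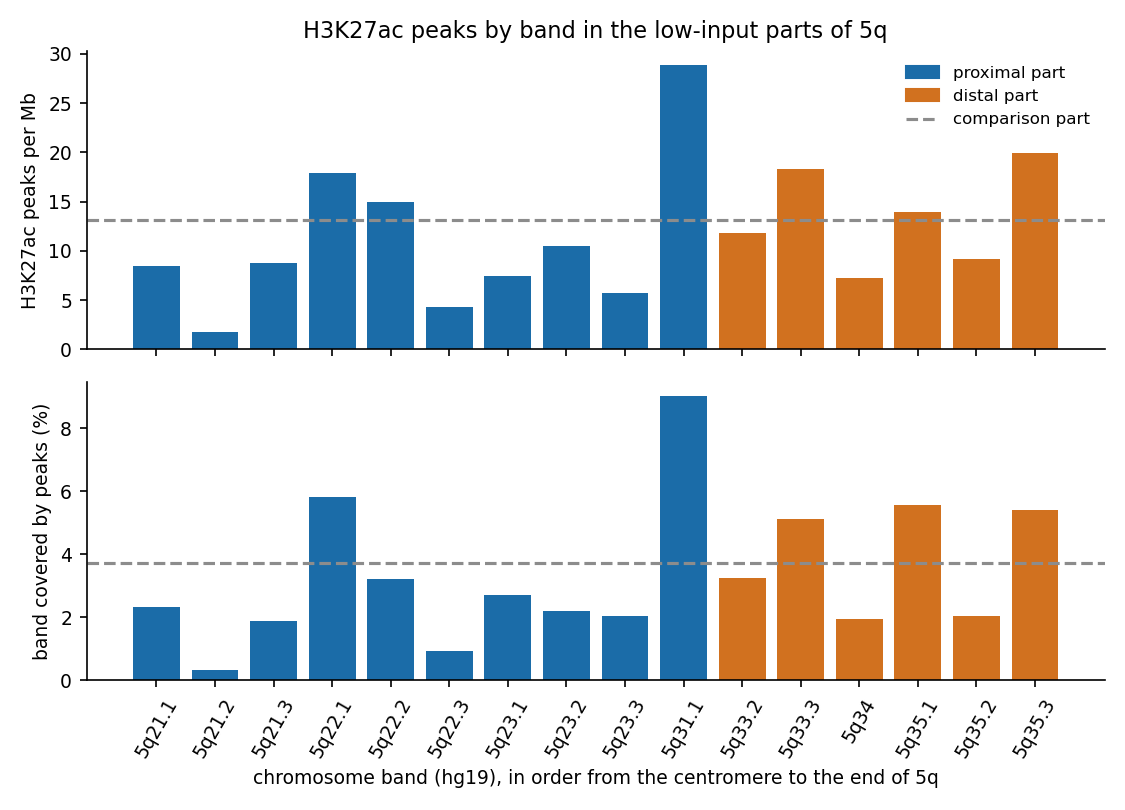
H3K27ac peaks per Mb (top) and percent of the band covered by peaks (bottom) for each band of at least 1 Mb in the proximal (blue) and distal (orange) part, with dashed lines at the comparison part's 13.2 per Mb and 3.71%. 5q31.1 is the highest bar in both panels, and 5q21.2 the lowest. Single bands of the comparison part are not drawn.

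At 1 Mb resolution the contrast within the parts was wide. Of 36 proximal windows 5 had no peak, and the fullest, 131107018 to 132107017 in 5q31.1, had 38. Of 27 distal windows 2 had none, and the fullest, 176411161 to 177411160 across 5q35.2 and 5q35.3, had 30. The fullest 4 proximal windows held 32.0% of the windowed proximal peaks, and the fullest 3 distal windows 24.3% of the distal ones. Of 96 comparison windows 13 had no peak, the fullest had 50, and the fullest 10 held 29.1% of the peaks. The longest stretches without a peak in the proximal part were 103876380 to 106503284 (2.63 Mb, 5q21.2 and 5q21.3), 112872093 to 114544574 (1.67 Mb, 5q22.2 and 5q22.3) and 98369666 to 99870246 (1.501 Mb, 5q21.1). In the distal part they were 159935942 to 162596106 (2.66 Mb, 5q34), 154687195 to 156109026 (1.42 Mb) and 165798991 to 167113867 (1.31 Mb, 5q34). The comparison part had longer ones, up to 4.87 Mb across the centromere.

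Peak widths overlapped widely between the parts. The median width was 1677 bp in the proximal part (95% interval 1443 to 1872, quartiles 924 and 3339), 1863 bp in the distal part (1690 to 2110, quartiles 884 and 3319) and 1613 bp in the comparison part (quartiles 764 and 3329). Peaks of 10 kb or more numbered 19 of 400 proximal (4.75%, Wilson interval 3.06 to 7.30), 14 of 347 distal (4.03%, 2.42 to 6.66) and 57 of 1273 comparison peaks (4.48%), against a background of 4.37% of all 52203 peaks. Both shares lie near that background. The ratio of the distal to the comparison median width was 1.15, and below 1 in stricter lists: 0.813 and 0.832 at -log10 q of at least 5 and 10, and 0.784 at a fold of at least 4. The proximal ratio was 1.04, and 0.926, 0.877 and 0.834 under the same thresholds. Of the 19 wide proximal peaks 8 lay in 5q31.1 and 4 each in 5q22.1 and 5q23.1, and of the 14 distal ones 7 lay in 5q35.1.

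The widest distal peak, chr5:169700365-169741161 in 5q35.1, was 40797 bp wide and ranked 53 in the genome by width, with a fold of 10.7. The next distal peaks were far narrower, at 17016 bp (169750214 to 169767229), 16876 bp (171600004 to 171616879), 15416 bp (172212006 to 172227421) and 15176 bp (172195439 to 172210614), all in 5q35.1. The widest proximal peak, chr5:131785655-131812211 in 5q31.1, was 26557 bp wide, ranked 225, with a fold of 8.99. It was followed by a pair in 5q23.1, the band of TNFAIP8, of 22762 bp (118637564 to 118660325) and 21850 bp (118662141 to 118683990). The other widest proximal peaks were 19510 bp at 130584109 to 130603618 and 16438 bp at 131822591 to 131839028.

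**Figure D3:**
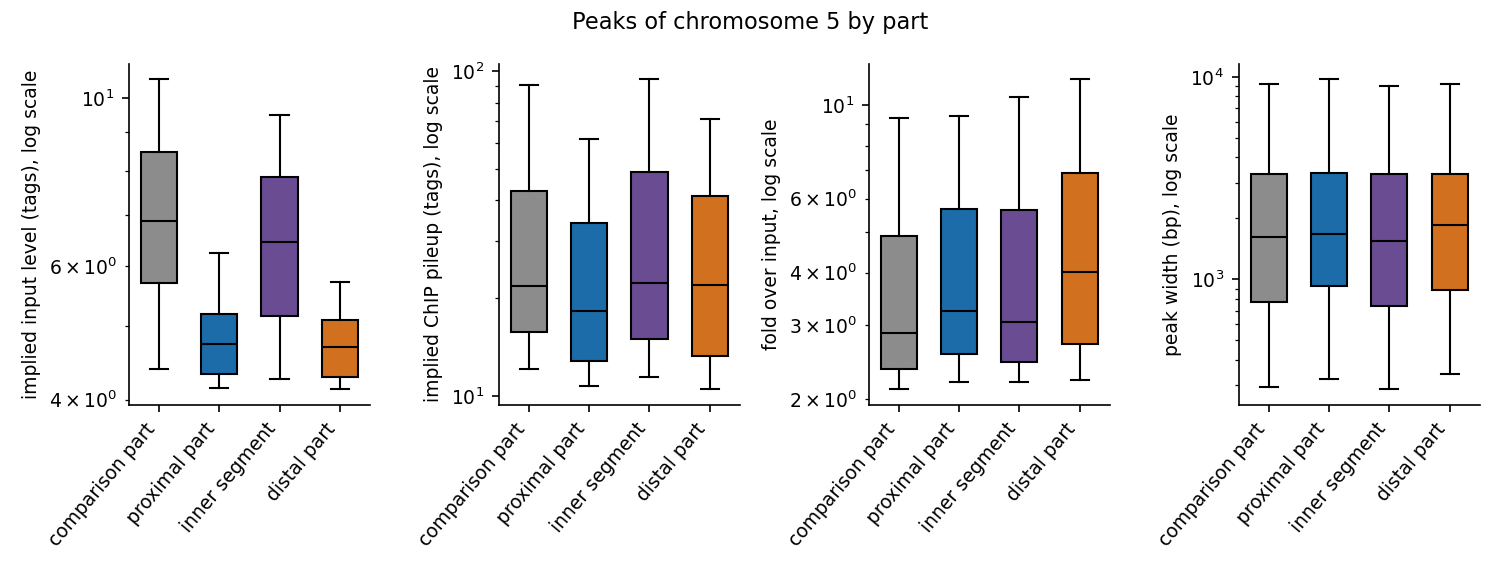
Implied input level, implied ChIP pileup (both in tags), fold over input and peak width (bp) of the peaks of each part of chromosome 5, on log scales; boxes show quartiles and median, whiskers the 5th and 95th percentiles of peaks with a level up to 20. The proximal and distal boxes sit low in input level, the distal box high in fold, and the 4 width boxes overlap almost in full.

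The fold was higher in the distal part than elsewhere on the chromosome, and this is one of the values that the choice of the parts used. The median fold was 3.25 in the proximal part, 4.01 in the distal part, 3.05 in the inner segment and 2.85 in the comparison part. On the log2 scale it was higher than in the comparison part by 0.19 in the proximal and 0.49 in the distal part. The median implied pileup was 18.2, 21.9 and 21.8 tags in the proximal, distal and comparison part, a log2 difference of -0.26 for the proximal and 0.01 for the distal part. The distal and comparison medians of pileup were near each other, but the distributions were not the same: the 5th percentile was 10.5 tags in the distal and 12.1 in the comparison part.

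Folds of 10 or more were found at 14 proximal peaks (3.5%, Wilson interval 2.096 to 5.789), 39 distal peaks (11.2%, 8.331 to 14.996) and 48 comparison peaks (3.77%), against a background of 5.21% of all peaks. Nothing is read from these counts, since the fold chose the parts. Ranked by implied pileup, an equally long list of the 2718 highest peaks held 2 proximal (0.500%), 1 distal (0.288%) and 69 comparison peaks (5.42%). The implied pileup is computed from the fold and p, which also chose the parts, so nothing is read from these counts either. A fold below 3 was found at 43.5% of the proximal, 33.4% of the distal and 53.8% of the comparison peaks. These weak peaks were narrow in all parts, with median widths of 908, 748.5 and 881 bp, and the share of all covered bases they gave was 17.4%, 11.1% and 21.5%.

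The peaks were split by the quartiles of implied pileup of the comparison part. More of the members than of the comparison peaks lay at the bottom, and fewer of the proximal ones at the top. The implied pileup is computed from the fold and p that chose the parts, so this split is a description only. Of the proximal peaks 168 (42.0%) lay under the lowest quartile limit of 15.7 tags and 67 (16.8%) above the highest of 42.8. Of the distal peaks 116 (33.4%) lay under it and 83 (23.9%) above it. Per Mb, the peaks above 42.8 tags numbered 1.83 in the proximal, 3.02 in the distal and 3.28 in the comparison part. Within that highest class the median fold was 8.23, 9.79 and 7.14 and the median width 5323, 4537 and 4677 bp.

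**Figure D4:**
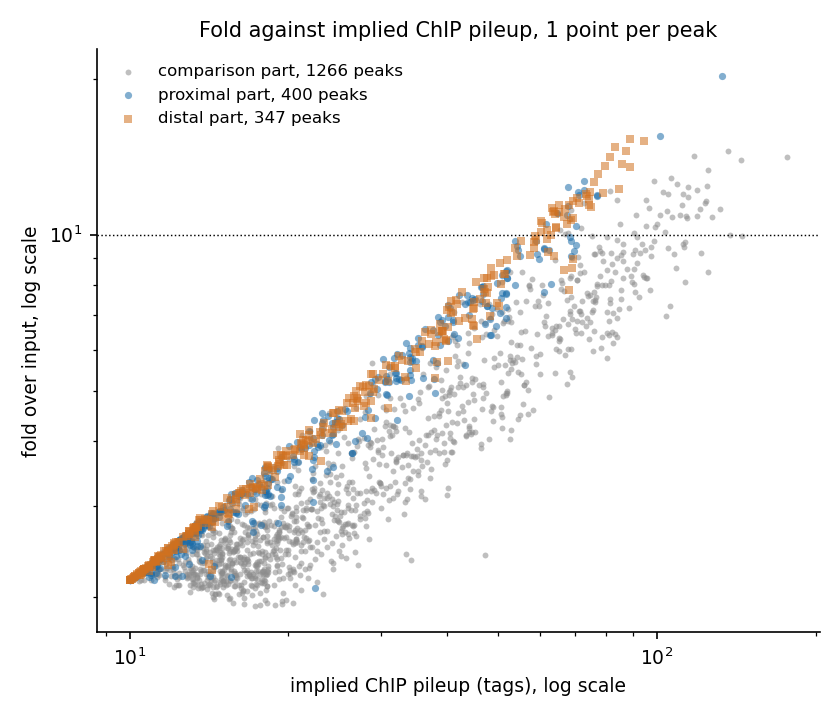
Fold over input against implied ChIP pileup in tags, both on log scales, for single peaks of the comparison (grey), proximal (blue) and distal (orange) part, with a dotted line at a fold of 10. At the same pileup the proximal and distal peaks lie along the upper edge of the cloud, and few of them extend to the right end, where the comparison peaks reach the highest pileups.

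By fold, one of the values that chose the parts, the strongest proximal loci lay in 5q31.1, and the PITX1 peak stood far above the rest. After its fold of 20.3 the next was 15.5 at chr5:131752815-131767845, a peak of 15031 bp that ranked 135 by fold and 1486 by pileup. The third was 12.7 at chr5:133858945-133865510 and the fourth 12.4 at chr5:133338453-133341861. Then came folds of 12.2 at 134240087 to 134242822, 12.1 at 131329412 to 131340376 and 11.9 at 132385700 to 132388972, all in 5q31.1. The first outside that band was 11.9 at chr5:126111188-126116415 in 5q23.2, the band of LMNB1. Of the 14 proximal peaks with a fold of 10 or more, 8 lay in 5q31.1 and 1 each in 6 other bands. These 8 were 6.78% of the 118 peaks of that band (Wilson interval 3.48 to 12.8), against 2.13% of the 282 peaks before it (0.979 to 4.56). The share over all peaks was 5.21%, inside the 5q31.1 interval. Nothing is read from these shares, since the fold chose the parts. No comparison peak exceeded a fold of 14.5. By implied pileup and by -log10 p the highest comparison peaks ranked 19 and 34 in the genome, ahead of the PITX1 peak at 225 and 57.

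By fold, one of the values that chose the parts, the strongest distal loci formed a group of similar values in 5q35. The highest was 15.3 at chr5:176934109-176938449, followed by 15.1 at chr5:179047344-179052478, 14.8 at chr5:176851960-176861502 and 14.5 at chr5:179429505-179437824, all in 5q35.3. Next were 14.1 at 176542930 to 176545229 and 13.5 at 176560765 to 176563026 in 5q35.2, and 13.7 at 169750214 to 169767229 in 5q35.1. The first outside 5q35 was 13.5 at chr5:156690755-156703261 in 5q33.3, a peak of 12507 bp. Its implied pileup of 89.03 tags was no lower than the 89.01 tags of the peak with the highest fold. The ranks of these 8 loci by fold ran from 148 to 412 and by implied pileup from 2118 to 4349. Each of the 8 thus stood lower by pileup than by fold. Of the 39 distal peaks with a fold of 10 or more, 29 were among the 181 peaks of 5q35 (16.0%, Wilson interval 11.4 to 22.1) and 10 among the 166 peaks before it (6.02%, 3.30 to 10.7). The share over all peaks was 5.21%, and here too nothing is read from the shares. The median input level was 4.72 in 5q35 and 4.65 before it, and the median implied pileup 27.1 and 19.2 tags.

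Among the highest 522 peaks of the genome by fold, a background of 1.000%, were 2 proximal, 9 distal and 5 comparison peaks. By implied pileup the same count was 1, 0 and 14, by -log10 p it was 1, 0 and 11, and by width 3, 1 and 12. The rankings by fold, pileup and -log10 p all use values that chose the parts. The 1 proximal peak in the pileup and p lists was the PITX1 peak, at rank 225 and rank 57. The 9 distal peaks of the fold list were absent from the pileup and p lists, and the highest distal rank was 2118 by pileup and 821 by p.

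Peaks within 12.5 kb of each other were joined over the whole genome, which gave 25510 regions, and each region was ranked by its peaks' fold times width, summed. Those past the point where the slope of the ranked curve reaches 1 are called large domains, 1421 or a background of 5.57% of regions. The proximal part had 10 large domains among 251 regions (3.98%), the distal part 15 among 205 (7.32%) and the comparison part 25 among 668 (3.74%). Because the fold enters the ranking, these counts carry what chose the parts. Ranked by width alone the counts were 9 proximal (3.59% of regions), 8 distal (3.90%) and 37 comparison domains (5.54%), against 6.13% of all regions. Ranked by implied pileup times width they were 8 (3.19%), 4 (1.95%) and 34 (5.09%), against 5.95%. The counts by pileup carry it too, since the pileup is computed from fold and p. The peaks inside large domains made up 14.25% of proximal, 19.02% of distal and 16.03% of comparison peaks, against 21.1% of all peaks. A single peak made up 70.1% of proximal and 62.4% of distal regions, and 61.5% of comparison regions.

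The proximal domains lay mainly in 5q31.1, which 7 of the 10 touched. The highest, chr5:131745027-131839028, held 8 peaks over 94.0 kb, 77.8% of it covered, and ranked 78 in the genome, or 210 by pileup. It contained both the second highest fold and the widest peak of the proximal part. The second, chr5:118603044-118706763 in 5q23.1, held 7 peaks over 104 kb and ranked 143. The third, chr5:134664987-134781464, ranked 166 and straddled the limit: of its 17 peaks 6 were proximal and the rest belonged to the inner segment, so its rank is not that of the proximal part alone. The next were chr5:111076857-111119724 in 5q22.1 with 4 peaks (rank 500) and chr5:131385372-131478677 in 5q31.1 with 12 peaks over 93.3 kb (rank 515). The PITX1 domain, chr5:134360449-134389914, came sixth with 5 peaks over 29.5 kb (rank 557). By width alone it ranked 2020 and was not large.

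Of the 15 distal domains 9 lay in 5q35, a stretch that held 52.2% of the distal peaks: 5 in 5q35.1, 3 in 5q35.3 and 1 in 5q35.2. Of the 15, 7 were also large by width alone, and these lay both in 5q35 and before it. The highest by fold times width, chr5:169688576-169767229 in 5q35.1, held 5 peaks over 78.7 kb, 82.5% of it covered. It ranked 72 in the genome, or 199 by pileup. It contained the 40797 bp peak and 2 peaks with a fold of 10 or more. The second, chr5:172191899-172230368, held 4 peaks over 38.5 kb and ranked 483. The third was the single peak chr5:171600004-171616879 (rank 883), and the fourth chr5:172254885-172289862 with 6 peaks (rank 925), both in 5q35.1. The fifth, chr5:165184795-165216306 with 5 peaks over 31.5 kb (rank 988), lay in 5q34 and the sixth, chr5:176851960-176883472 with 3 peaks (rank 996), in 5q35.3. After the first domain, the distal ones had ranks from 483 to 1391 of 1421, and the last 5 of them ranked 1350 to 1391.

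**Figure D5:**
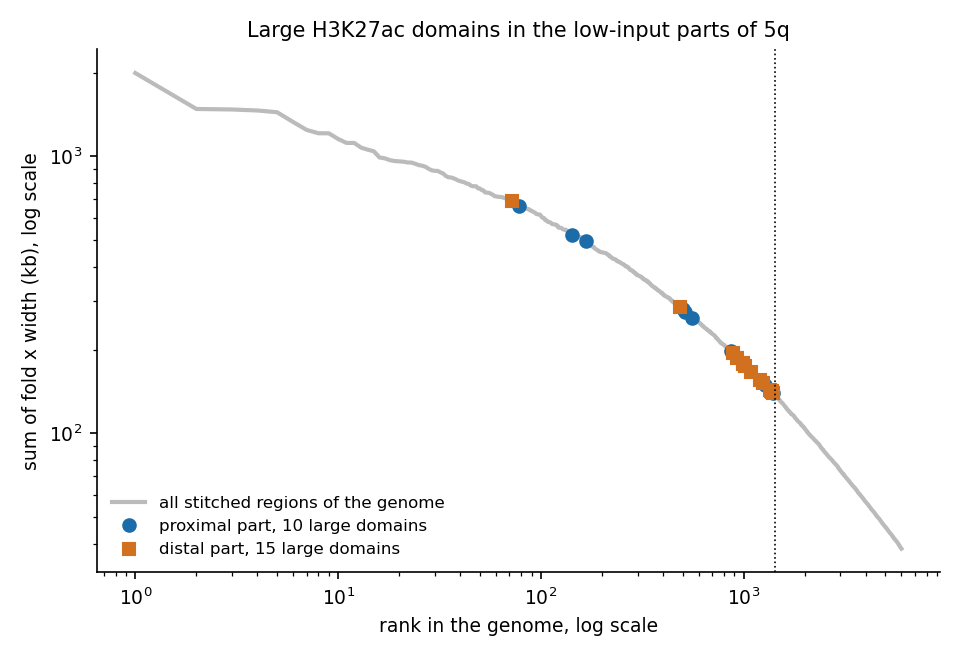
Sum of fold times width (kb) of stitched regions against their rank in the genome, both on log scales; the grey line runs through the stitched regions of the whole genome, points are the 10 proximal (blue) and 15 distal (orange) large domains, and the dotted line is the limit of 1421. Both parts have 1 domain ahead of rank 100, at 78 and 72, and the last 5 distal domains, at ranks 1350 to 1391, lie next to the limit.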

How the data were processed

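H3K27ac ChIP and input DNA of LOUCY were sequenced single-end, 1 library each. The submitters' processing notes name Bowtie2, MACS2 and the build hg19. Per the file headers, the authors called broad peaks with MACS2 2.1.0.20140616 against input at a q cutoff of 0.05, with fragments of 204 bp and 1 tag kept per position, which caps the highest peaks. Of 62626946 ChIP tags 54357332 were kept, and of 74212738 input tags 71932640. The deposited fold is a ratio of ChIP pileup to local input, and the deposited -log10 p and -log10 q are the caller's values. The deposited pileup was below 0 or not finite in all 52203 rows and was not analysed.

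The implied input level was solved per peak from fold and p, with 1 added to pileup and input, and the implied pileup follows from it. The level is approximate for broad peaks. Levels above 20 (7 comparison peaks, no member) were left out of medians, and counted as 20 for pileup. Peaks within 12500 bp were joined and ranked by fold times width, in place of pileup times width. Intervals are 95% Wilson, or order statistics for medians. No test was run with 1 library per group. Items named were, in each part, the 8 highest folds, 5 widest peaks, 6 highest domains, 3 longest gaps, the densest and the sparsest band, and 2 peaks either side of each limit; other bands and the genes found in the sets were added, except 1 gene of the comparison part that is not reported here. The members, limits and lists were chosen with earlier results of these data known.

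Bands came from circlize 0.4.16. Genes came from GenomicFeatures 1.54.1 (hg19 sample) and the example set of pyranges 0.1.4, whose build is not named: 54.8% of 354 of its gene starts lay within 1 kb of a peak, against 16.1% for GRCh38.p14 starts and 12.4% to 15.5% after moving it by 20 or 100 kb, so it was taken as hg19. Promoter sequences are from RefSeq (GRCh38.p14), matched by symbol for 6 of 6 genes, of which 5 had the RefSeq start at the hg19 start, judged by the difference between the builds in neighbouring genes. Python 3.11.15, numpy 2.4.6, pandas 2.3.3, scipy 1.17.1, matplotlib 3.10.9 and R 4.3.3 were used. Alternatives were other q, fold and height thresholds, merging, limits, comparison sequence, stitching distances and rankings.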

Additional observations from a re-analysis of the deposited data

How the results depend on the processing

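With 1 ChIP library, no library could be left out. No paired analysis was possible because there is 1 ChIP and 1 input library and no result comes from a test. The proximal density ratio to the comparison part, 0.829, was 1.01 at a fold of at least 4, 1.01 at a fold of at least 3 (chosen after seeing the data), 0.645 at the same minimum height, 0.939 with the same Giemsa mix, 0.622 against 5q only and 0.611 against the other autosomes. The distal ratio, 0.957, was 1.24 and 1.27 at -log10 q of at least 5 and 10, 1.498 and 1.379 at folds of at least 4 and 3, 0.718 against 5q only and 0.705 against the other autosomes. For each ratio the other 5 alternatives stayed within its interval. The median width rose with each stricter threshold in every part: to 3054, 3533.5, 3335 and 2620.5 bp in the proximal part and 2682, 3353, 3135 and 2542 bp in the distal part at -log10 q of at least 5, of at least 10, a fold of at least 4 and the same minimum height. Under the first 3 of these the comparison medians, 3299, 4028 and 4000.5 bp, were higher than both. The next counts are of each list and need not hold the same members. The count of proximal large domains went from 10 of 251 regions (3.98%) to 6 of 118 (5.08%) at -log10 q of at least 10. The share over all regions went from 5.57% to 5.34%. The distal count went from 15 of 205 regions (7.32%) to 8 (3.90%) by width and 4 (1.95%) by implied pileup. Over all regions these 2 shares were 6.13% and 5.95%. At -log10 q of at least 10 the distal count was 3 of 120 (2.50%). Among the highest 1% of peaks, the proximal count went from 2 to 1 by pileup and 1 by -log10 p. The distal count went from 9 to 0 by pileup, 0 by -log10 p and 1 by width. That 1 peak ranked 1934 by fold and was not among the 9. Rankings and thresholds that use the fold, the implied pileup or -log10 p rest on the values that chose the parts. The input depth and the floor of 4.11 limit how low a level can be read, and the number of chromosome copies was not measured here.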
